A study of Mus musculus with 3 samples.

Results

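The 36 genes described here encode the enzymes and regulators by which a mouse cell makes sterols and fatty acids, measured in bone marrow-derived macrophages with and without adiponectin. They were taken as a list of gene symbols and found on the arrays through the RefSeq accession of each probe. All 36 had a probe, 52 probes in all, and all 36 passed the filter on dim probes and were tested, among 13179 tested genes of 20660 named on the array. They fall into 18 enzymes of the sterol arm, 12 enzymes of the fatty acid arm and 6 regulators and transport proteins.

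Per the labels, the cells were bone marrow precursors of wild-type C57BL/6J mice, matured in L929-conditioned medium as the source of the growth factor CSF-1, then replated in medium with little serum. Treated cells received adiponectin, a hormone secreted by fat cells, at 12 µg/ml for 18 h, and untreated cells, which shared every other step, did not. The extraction text gives the same dose with milligrams as the unit. RNA of 3 treated and 3 untreated samples was hybridised in pairs on 3 Agilent 2-colour arrays, and replicate 2 carried the treated RNA in Cy5 where replicates 1 and 3 carried it in Cy3. The labels call the replicates biological without saying that each came from its own animal, so that the p-values measure the spread between these samples.

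Sterols are built from acetyl-CoA by way of mevalonate, isoprenoid units, squalene and lanosterol, while fatty acids are built from the same acetyl-CoA by way of malonyl-CoA and are then lengthened and desaturated. Both arms are textbook targets of the SREBP transcription factors, of which SREBP2 (gene Srebf2) acts mainly on sterol genes and SREBP1 (gene Srebf1) mainly on fatty acid genes. The escort protein SCAP carries the SREBPs from the endoplasmic reticulum to the Golgi, where they are cut and released. INSIG proteins hold SCAP back when sterols are plentiful. In macrophages these pathways are known to be tied to the handling of cholesterol taken up from outside the cell.

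Promoter windows from RefSeq (GRCm38.p6), which run from 250 bases before to 50 bases after a transcription start, were listed for 29 of the 36 members, with 39 windows in all. None was listed for Fdps, Fdft1, Sqle, Stard4, Scd1, Scd2 and Fads1. They were searched on both strands for the letters TCACNCCAC, a form of the sterol regulatory element, CACGTG, the E-box that SREBPs can also bind, and CCAAT, the box of the factor NF-Y that works beside SREBPs on many sterol genes. Matches of different motifs did not overlap in the members' windows, and in Fasn NF-Y boxes at -62 and -59 on opposite strands overlapped each other. The 250 bases before the start are shown for 5 members that differ in response: Insig1 and Mvd, whose RNA rose most, Hmgcs1, whose RNA did not pass the test, and Ebp and Elovl5, whose RNA fell. Each is written 5′ to 3′ on the gene's own strand, with motif letters in capitals.

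Insig1, chr5:28071162-28071411, plus strand: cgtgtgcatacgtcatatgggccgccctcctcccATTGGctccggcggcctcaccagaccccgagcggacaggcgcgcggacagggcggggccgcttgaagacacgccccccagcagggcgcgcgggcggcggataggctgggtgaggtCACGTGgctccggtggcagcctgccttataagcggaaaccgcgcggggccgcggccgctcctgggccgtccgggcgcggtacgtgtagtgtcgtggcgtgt
Mvd, chr8:122443423-122443672, minus strand: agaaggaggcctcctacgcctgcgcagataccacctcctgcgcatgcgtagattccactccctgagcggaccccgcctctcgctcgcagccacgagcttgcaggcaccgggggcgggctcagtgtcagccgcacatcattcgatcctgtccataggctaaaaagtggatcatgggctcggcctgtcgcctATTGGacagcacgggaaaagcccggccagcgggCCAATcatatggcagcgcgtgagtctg
Hmgcs1, chr13:119690101-119690350, plus strand: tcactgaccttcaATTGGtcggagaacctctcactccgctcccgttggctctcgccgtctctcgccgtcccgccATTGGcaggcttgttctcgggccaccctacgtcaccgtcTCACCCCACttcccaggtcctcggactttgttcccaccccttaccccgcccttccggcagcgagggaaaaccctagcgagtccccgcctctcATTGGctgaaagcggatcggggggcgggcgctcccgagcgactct
Ebp, chrX:8193513-8193762, minus strand: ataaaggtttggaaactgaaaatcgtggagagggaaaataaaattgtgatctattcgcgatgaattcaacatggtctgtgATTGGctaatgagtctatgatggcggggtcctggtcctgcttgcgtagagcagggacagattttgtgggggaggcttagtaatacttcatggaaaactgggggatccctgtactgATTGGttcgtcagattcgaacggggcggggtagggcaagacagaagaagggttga
Elovl5, chr9:77917115-77917364, plus strand: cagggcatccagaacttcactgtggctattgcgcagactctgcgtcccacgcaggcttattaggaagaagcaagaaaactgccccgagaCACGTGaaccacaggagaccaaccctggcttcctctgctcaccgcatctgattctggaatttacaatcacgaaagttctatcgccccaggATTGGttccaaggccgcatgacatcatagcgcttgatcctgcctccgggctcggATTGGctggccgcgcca

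No RefSeq gene model overlapped the bases shown for Hmgcs1, Ebp and Elovl5. Those of Insig1 overlapped the model of the noncoding gene Gm35223, and those of Mvd overlapped another noncoding gene model. Counting a position as the motif's first base, Mvd had an NF-Y box on each strand, at -60 and -27. Insig1 had an NF-Y box at -216 and an E-box at -101. In Hmgcs1 the only match to the sterol regulatory element among the members stood at -137, with NF-Y boxes at -237, -176, -45 and 11. Ebp carried NF-Y boxes at -170 and -55, and Elovl5 at -71 and -17 beside an E-box at -161.

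The NF-Y box was present in 24 of the 29 members with a window (82.8%), against 41.1% of all 27025 genes with a window. It was found in 14 of 15 sterol enzymes, 6 of 9 fatty acid enzymes and 4 of 5 regulators. The E-box was present in 6 members, namely Dhcr7, Elovl5, Hsd17b7, Insig1, Sc5d and Scap (20.7%, against 8.09% of all genes). The sterol regulatory element in this spelling was present in 1 member (3.45%, against 1.44%). Members that rose and members that fell both carried NF-Y boxes, and so did Hmgcs1, Idi1 and Msmo1, whose ratios lay near 0. A match describes letters and not a bound site.

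**Figure D1:**
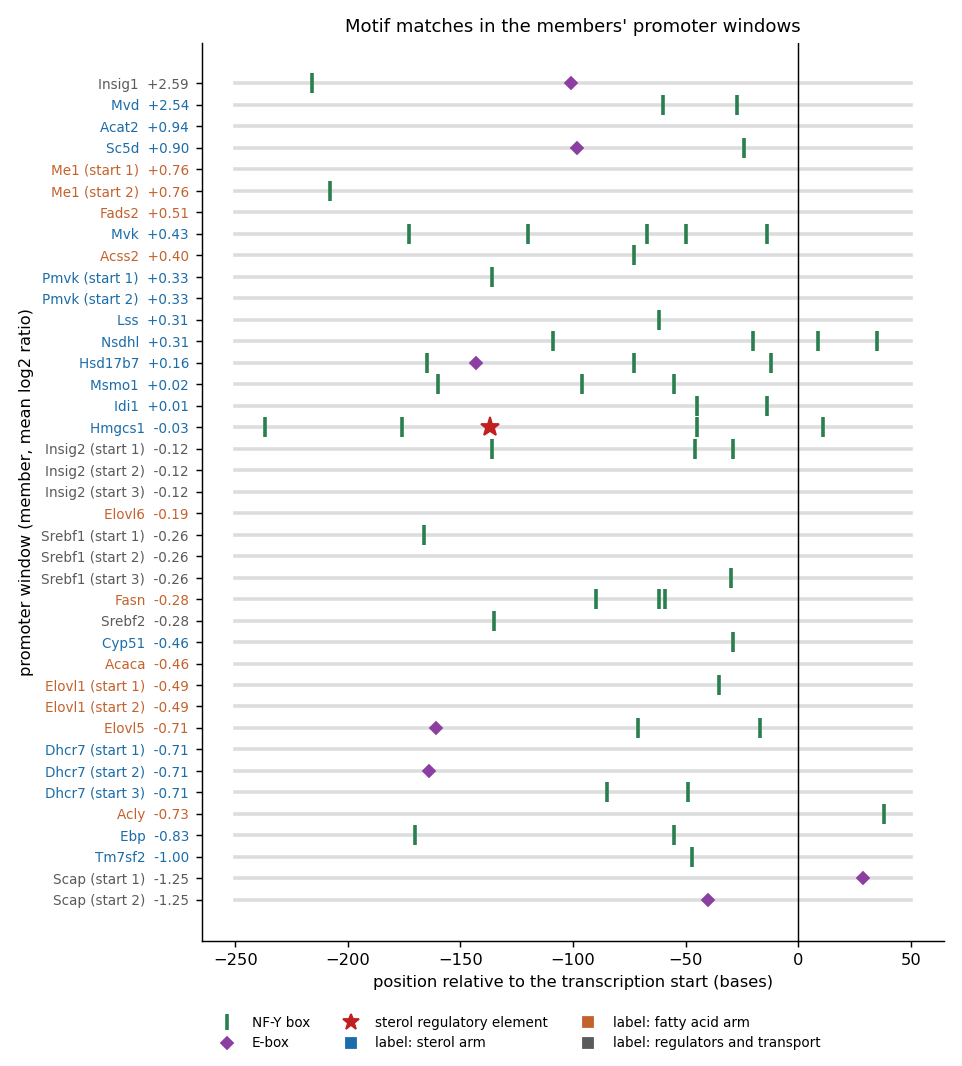
Positions of the 3 motifs in the 39 promoter windows of 29 members, in bases from the transcription start, with members ordered from the highest to the lowest mean log2 ratio (treated over untreated) printed beside each name. NF-Y boxes are spread from the top of the order, in Insig1 at 2.59, to Tm7sf2 near its foot at -0.998, and the single sterol regulatory element is in Hmgcs1.

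Of the 36 members, 14 rose with adiponectin and 16 fell, with 6 not called, by limma against a log2 ratio of 0 (Benjamini-Hochberg adjusted p under 0.05 over all tested genes). Over all tested genes 24.5% rose and 46.1% fell, and their median log2 ratio was -0.17. The 2 arms lay on opposite sides of 0. In the sterol arm 10 of 18 enzymes rose and 4 fell, with a median log2 ratio of 0.28, and in the fatty acid arm 3 of 12 rose and 8 fell, with a median of -0.47. Among these, Fasn passed the filter on dim probes only through its untreated samples, and 7 fell when all 6 readings had to be above background. Of the regulators 1 of 6 rose and 4 fell. Without replicate 1, 6 sterol enzymes rose and 1 regulator fell, and without replicate 3, 2 regulators fell. At a threshold of 2-fold, 4 members rose (Insig1, Mvd, Fdps and Fdft1) and 2 fell (Scap and Scd2), where the shares over all tested genes were 6.8% and 12.6%.

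The difference between the arms had the same sign on each array. The median of the sterol arm was 0.20, 0.23 and 0.20 on replicates 1, 2 and 3, and that of the fatty acid arm was -0.39, -0.33 and -0.71. The sterol median minus the fatty acid median was therefore 0.60, 0.56 and 0.91. The sterol medians varied little between arrays, whereas the fatty acid median was lowest on replicate 3. No test was made of this difference, since the members were listed with results of these data known. With arrays centred on the tested genes, which raises every ratio by about 0.17, 11 sterol enzymes rose and 4 fell, 3 fatty acid enzymes rose and 7 fell, 1 regulator rose and 1 fell, and 35.2% of all tested genes rose and 36.7% fell. With arrays centred on their medians in place of loess, limma called none of the 13179 genes (5311 had an unadjusted p under 0.05). The sterol median was then -0.79 and the fatty acid median -1.58, their difference was 0.80, 0.52 and 1.17 on the 3 arrays, and over all tested genes the median was -1.48 and -1.67 on the arrays with treated RNA in Cy3 and -0.060 on the swapped array.

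**Figure D2:**
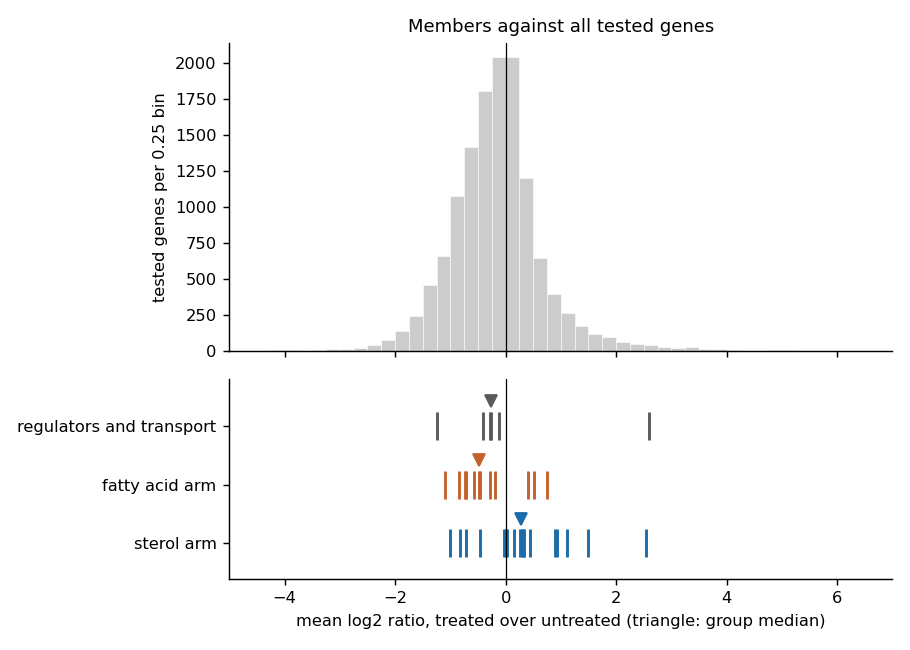
Upper panel: histogram of the mean log2 ratio (treated over untreated) of the 13179 tested genes in bins of 0.25. Lower panel: the mean log2 ratio of each member as a tick and the median of each group as a triangle. The sterol triangle lies at 0.28, to the right of 0, and those of the fatty acid arm (-0.47) and the regulators (-0.27) to its left.

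**Figure D3:**
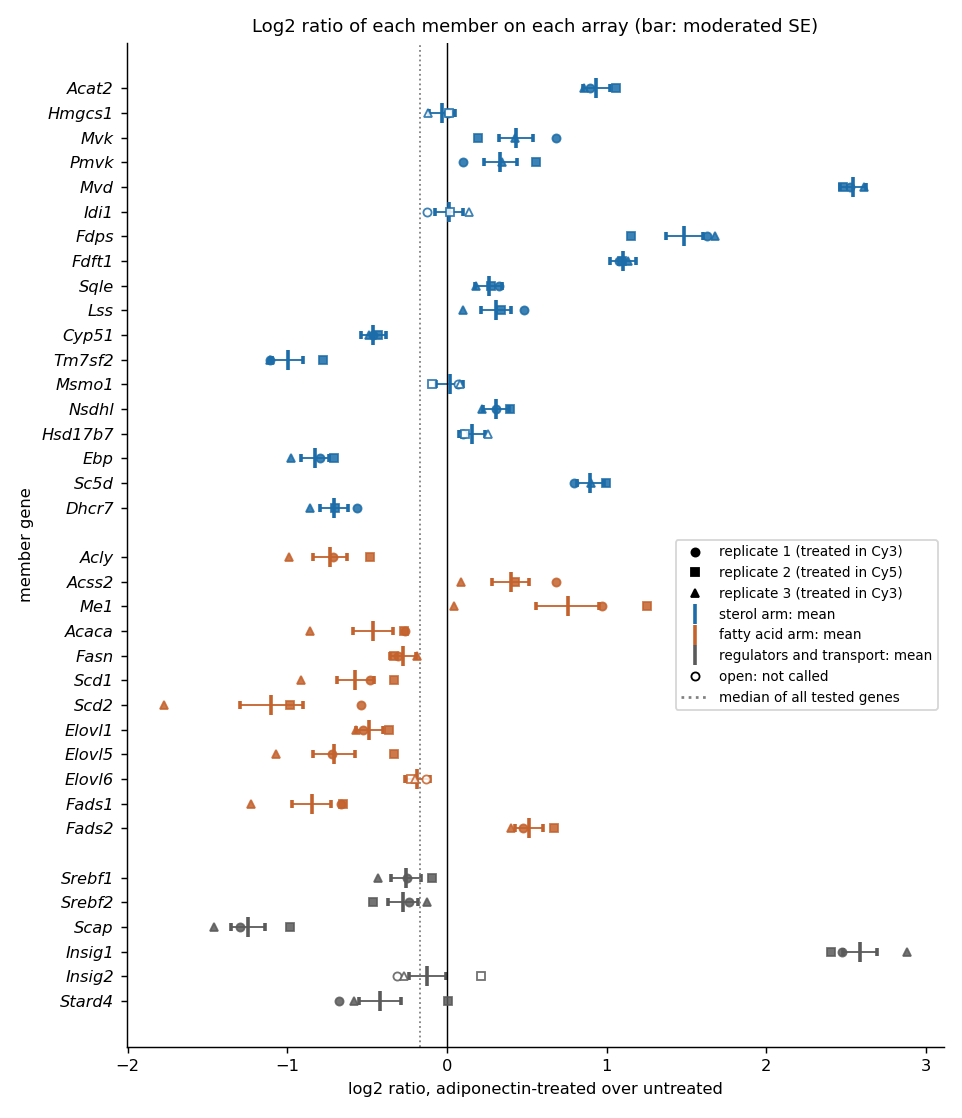
Log2 ratio of each member on replicates 1, 2 and 3 (symbols), with the mean as a vertical tick and the moderated standard error as a bar, the groups in colour, open symbols for members not called and a dotted line at the median of all tested genes. Insig1 and Mvd stand apart at the right on all 3 arrays, and the triangles of replicate 3 lie to the left in most fatty acid enzymes.

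The sterol arm is given here by step, and differences between steps were not tested. Of the 7 enzymes from acetyl-CoA to farnesyl diphosphate, 5 rose and none fell (median 0.43), and all 3 enzymes from farnesyl diphosphate to lanosterol rose (median 0.31). Of the 8 enzymes after lanosterol, 2 rose and 4 fell (median -0.22), shares that lie near the 24.5% and 46.1% over all tested genes. Levels are given below as normalized log2 intensities of each channel, which are not comparable between probes. In bulk RNA, fewer cells that express a gene and less of its RNA per cell cannot be told apart.

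Mvd, mevalonate diphosphate decarboxylase, was at 11.73, 11.70 and 11.83 in the treated samples of replicates 1 to 3 and at 9.20, 9.22 and 9.21 in the untreated ones. The samples of each group lay within a narrow band and the bands were far apart. Its log2 ratios of 2.53, 2.48 and 2.61 gave a mean of 2.54 ± 0.081 (moderated SE, n = 3; limma adjusted p = 8.82e-08), a 5.82-fold rise that ranked 135 from the top among the tested genes. Fdps, which makes farnesyl diphosphate, was at 12.88, 12.68 and 12.97 in treated and 11.25, 11.53 and 11.29 in untreated samples. All treated samples were higher, with the smallest gap on the swapped array. The log2 ratios were 1.63, 1.15 and 1.68, with a mean of 1.49 ± 0.11 (n = 3; limma adjusted p = 7.31e-06).

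The other enzymes of the mevalonate steps moved less or did not pass. Acat2, the thiolase that starts the pathway, rose by 0.94 ± 0.085 on the log2 scale (n = 3; limma adjusted p = 1.82e-05). The value was 1.45 without an offset in the background correction and 1.602 in the scanner's own log ratio. Mvk and Pmvk, the kinases that act on mevalonate and its phosphate, rose by 0.43 ± 0.11 and 0.33 ± 0.10 (limma adjusted p = 0.00573 and 0.0176). The call of Mvk was lost without replicate 1 (limma adjusted p = 0.0598) and that of Pmvk without replicate 2 (0.0752, at 0.22) or replicate 3 (0.0650). Pmvk was not called in the scanner's own log ratio either (limma adjusted p = 0.0603).

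Hmgcs1, which makes HMG-CoA, gave log2 ratios of 0.0046, 0.014 and -0.12, and its treated and untreated levels overlapped (11.52 to 11.57 and 11.56 to 11.63). Idi1, isopentenyl diphosphate isomerase, had a mean log2 ratio of 0.010, with overlapping levels too. Mvd and these enzymes, neighbours in one pathway and textbook targets of one factor, thus ranged from a 5.82-fold rise to no detected change.

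Fdft1, squalene synthase, had treated levels of 10.27, 10.36 and 10.40 and untreated levels of 9.19, 9.27 and 9.27 on its brighter probe. The ratios of 1.08, 1.10 and 1.13 were nearly equal, with a mean of 1.10 ± 0.080 (n = 3; limma adjusted p = 4.94e-06). Its dimmer probe gave -0.25, -0.45 and -0.19 and was not well above background in any treated sample, and the mean over both probes was 0.40. Sqle, the epoxidase that commits squalene to sterols, rose by 0.26 ± 0.082, and Lss, which closes the lanosterol ring, by 0.31 ± 0.096 (limma adjusted p = 0.0196 and 0.0193). Both calls were lost without replicate 1 (limma adjusted p = 0.136 and 0.165). Lss was at 0.53 without the offset and 0.63 in the scanner's own log ratio.

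After lanosterol, Tm7sf2, a reductase of the sterol ring, had treated levels of 9.04, 9.17 and 9.06 against 10.15, 9.95 and 10.17 without adiponectin. Every treated sample was lower. The log2 ratios were -1.11, -0.78 and -1.11 and the mean -0.998 ± 0.096 (n = 3; limma adjusted p = 2.53e-05), and its dimmer probe gave -0.69. Ebp, the isomerase that shifts the ring's double bond, was at -0.83 ± 0.088, and Dhcr7, which makes cholesterol from its last precursor, at -0.71 ± 0.090 (limma adjusted p = 4.72e-05 and 0.000133). Cyp51, the lanosterol demethylase, was at -0.46 ± 0.079 (limma adjusted p = 0.000839), at -0.73 without the offset and at -0.90 in the scanner's own log ratio. These 4 enzymes fell on every array, and their treated and untreated levels did not overlap.

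Sc5d, a sterol desaturase that acts between Ebp and Dhcr7, moved the other way. Its treated levels were 10.71, 10.78 and 10.87 and its untreated levels 9.91, 9.79 and 9.97, with a mean log2 ratio of 0.90 ± 0.084 (n = 3; limma adjusted p = 2.15e-05). Sc5d thus rose while the enzymes on either side of it fell. Nsdhl, which removes carbon groups from the ring, gave 0.31, 0.39 and 0.22 on its brighter probe (mean 0.31 ± 0.083; limma adjusted p = 0.00977) and -0.024, -0.40 and -0.11 on the dimmer one. The call was lost with the mean over both probes (0.064; limma adjusted p = 0.474) and without replicate 1 (limma adjusted p = 0.0577). Msmo1, the oxidase of the same stretch, was at 0.017, and Hsd17b7, the ketoreductase, at 0.16. Neither was called, though Hsd17b7 passed when arrays were centred on the tested genes (0.33; limma adjusted p = 0.00727), without the offset (0.37; 0.0241) and in the scanner's own log ratio (0.50; 0.0246).

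In the fatty acid arm the supply enzymes were split. Me1, malic enzyme, which makes NADPH, had treated levels of 10.26, 10.35 and 9.31 and untreated levels of 9.29, 9.10 and 9.27. The treated sample of replicate 3 lay just above the untreated ones while the other treated samples lay well above them. Its log2 ratios were 0.97, 1.25 and 0.042 (mean 0.76 ± 0.20, n = 3; limma adjusted p = 0.00812), and its other kept probes had means of 1.11 and 0.64. Acss2, which makes acetyl-CoA from acetate, rose by 0.40 ± 0.12 (limma adjusted p = 0.0140), a call that was lost without replicate 1 (0.26; limma adjusted p = 0.125). Acly, which makes acetyl-CoA from citrate, fell by 0.73 on the log2 scale (moderated SE 0.11; limma adjusted p = 0.000323), while its dim probe gave -0.053 and the mean over both -0.39.

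Acaca, acetyl-CoA carboxylase, which makes malonyl-CoA, was at -0.46 ± 0.13 (limma adjusted p = 0.00966), and at -0.27 without replicate 3, where the call was lost (limma adjusted p = 0.0621). It was not called without the offset (limma adjusted p = 0.0701) or in the scanner's own log ratio (limma adjusted p = 0.0959). Fasn, fatty acid synthase, was near background. It was not well above background in any treated sample, so its untreated level of 6.38 gives only a bound, at least 1.19-fold higher than treated. The fit gave -0.28 (limma adjusted p = 0.0155). Its call was lost with arrays centred on the tested genes (-0.10; limma adjusted p = 0.294) and without replicate 1 (limma adjusted p = 0.0957), while the scanner's own log ratio gave -2.47.

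The stearoyl-CoA desaturases Scd1 and Scd2, which put the first double bond into saturated fatty acids, both fell. Scd2 was at 12.66, 12.32 and 11.43 in treated and 13.20, 13.30 and 13.20 in untreated samples. The untreated samples were nearly equal, the treated ones were lower, and that of replicate 3 was lowest. The log2 ratios of Scd2 were -0.54, -0.98 and -1.77 (mean -1.10 ± 0.19, n = 3; limma adjusted p = 0.000999). Those of Scd1 were -0.48, -0.33 and -0.91 (mean -0.58 ± 0.12; limma adjusted p = 0.00220). The ratio of Scd1 exceeded that of Scd2 by 0.058, 0.65 and 0.86 on the 3 arrays, a mean difference of 0.52 (exact two-sided sign-flip permutation test, p = 0.25, the smallest that 3 arrays allow).

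The front-end desaturases Fads1 and Fads2, which act in turn on polyunsaturated fatty acids, moved in opposite directions. Fads1 was at 9.64, 9.89 and 9.17 in treated and 10.31, 10.54 and 10.40 in untreated samples, with every treated sample lower. Its log2 ratios were -0.67, -0.65 and -1.23 (mean -0.85 ± 0.12; limma adjusted p = 0.000301). Fads2 was at 7.18, 7.34 and 7.05 in treated and 6.70, 6.68 and 6.65 in untreated samples, with every treated sample higher. The log2 ratios of Fads2 were 0.47, 0.67 and 0.40 (mean 0.51 ± 0.088; limma adjusted p = 0.000844), and its mean was 1.01 without the offset and 1.28 in the scanner's own log ratio. Fads1 minus Fads2 was -1.14, -1.32 and -1.63 on the 3 arrays, a mean of -1.36 (exact sign-flip permutation p = 0.25).

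Of the elongases, Elovl5, which lengthens polyunsaturated chains, gave log2 ratios of -0.72, -0.33 and -1.07 (mean -0.71 ± 0.13; limma adjusted p = 0.00134). Elovl1, which lengthens very long saturated chains, gave -0.52, -0.36 and -0.57 (mean -0.49 ± 0.085; limma adjusted p = 0.000922). Elovl6, which turns palmitate into stearate, gave -0.13, -0.22 and -0.20 (mean -0.19 ± 0.080) and was not called (limma adjusted p = 0.0671), though it passed in the fit with a dye term (-0.20; limma adjusted p = 0.0483). The treated and untreated levels of Elovl6 overlapped, while those of Elovl1 and Elovl5 did not. Elovl1 minus Elovl5 had a mean of 0.22 and Elovl1 minus Elovl6 one of -0.30 (exact sign-flip permutation p = 0.5 and 0.25).

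Replicate 3 gave the lowest ratio in 10 of the 12 fatty acid enzymes (83.3%) and in 9 of the 18 sterol enzymes, against 39.5% of all tested genes. The median SD over arrays was 0.30 in the fatty acid arm, 0.10 in the sterol arm and 0.14 over all tested genes. On replicate 3 43.9% of probes were above background in the treated channel, against 46.9% and 47.5% on replicates 1 and 2, and 53.4% to 54.3% in the untreated channels. Replicates 1 and 3 share a dye orientation, and in the limma fit with a dye term the dye coefficient passed the threshold for 45 of the tested genes but for no member. Replicate 2 alone was swapped, so that this fit could have missed dye effects of members. Stard4 came nearest, with a dye coefficient of 0.32 (SE 0.077; limma adjusted p = 0.200). The part of array quality in the values of replicate 3 was not tested.

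Among the regulators, Insig1 rose most. Its treated levels were 9.75, 9.89 and 10.31 and its untreated levels 7.28, 7.48 and 7.43. The log2 ratios of 2.47, 2.41 and 2.88 gave a mean of 2.59 ± 0.11 (n = 3; limma adjusted p = 3.02e-07), a 6.01-fold rise that ranked 130 from the top among the tested genes. Its paralogue Insig2, the other sterol-dependent anchor of SCAP, had treated levels of 10.51, 10.69 and 10.48 and untreated levels of 10.83, 10.48 and 10.75, which overlapped. The ratios of Insig2 were -0.31, 0.21 and -0.27 (mean -0.12 ± 0.11; limma adjusted p = 0.360), and its dimmer probe gave 0.29, 0.14 and 0.25. Without replicate 2 the brighter probe was called at -0.29 (limma adjusted p = 0.0182). Insig1 minus Insig2 was 2.79, 2.20 and 3.15, a mean of 2.71 (exact sign-flip permutation p = 0.25).

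Scap, the escort that INSIG proteins hold back, fell. It was at 9.63, 9.82 and 9.44 in treated and at 10.93, 10.80 and 10.90 in untreated samples, without overlap. The log2 ratios were -1.30, -0.98 and -1.46, with a mean of -1.25 ± 0.11 (n = 3; limma adjusted p = 1.17e-05).

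The genes of the SREBPs themselves lay closer to 0. Srebf1 gave log2 ratios of -0.25, -0.092 and -0.43 (mean -0.26 ± 0.093; limma adjusted p = 0.0345) and Srebf2 -0.24, -0.46 and -0.13 (mean -0.28 ± 0.093; limma adjusted p = 0.0262). The dimmer probe of Srebf2 gave 0.20, 0.35 and 0.30, and the mean over both was 0.0047. Srebf1 minus Srebf2 had a mean of 0.018 and changed sign between arrays (exact sign-flip permutation p = 1). With arrays centred on the tested genes neither was called (-0.087 and -0.10; limma adjusted p = 0.398 and 0.348). Both calls were lost without replicate 1 (limma adjusted p = 0.117 and 0.0820), that of Srebf2 also without replicate 2 (0.101, at -0.18) and that of Srebf1 without replicate 3 (0.221, at -0.17). Both were lost as well without the offset (limma adjusted p = 0.0661 and 0.170) and in the scanner's own log ratio (0.188 and 0.0777), and that of Srebf2 without background correction (0.0564) and in the authors' deposited table (0.0720).

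Stard4, which carries cholesterol between membranes, gave -0.68, 0.0079 and -0.58 (mean -0.42 ± 0.13; limma adjusted p = 0.0201), and its dimmer probe -0.017, 0.36 and 0.087. Its levels overlapped between the groups. The call of Stard4 was lost without replicate 1 (limma adjusted p = 0.139), without replicate 3 (0.107), with the mean over both probes (-0.14; 0.288) and with arrays centred on the tested genes (-0.25; 0.0991), without the offset (0.0758) and in the scanner's own log ratio (0.115), and the value was -0.63 without replicate 2.

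**Figure D4:**
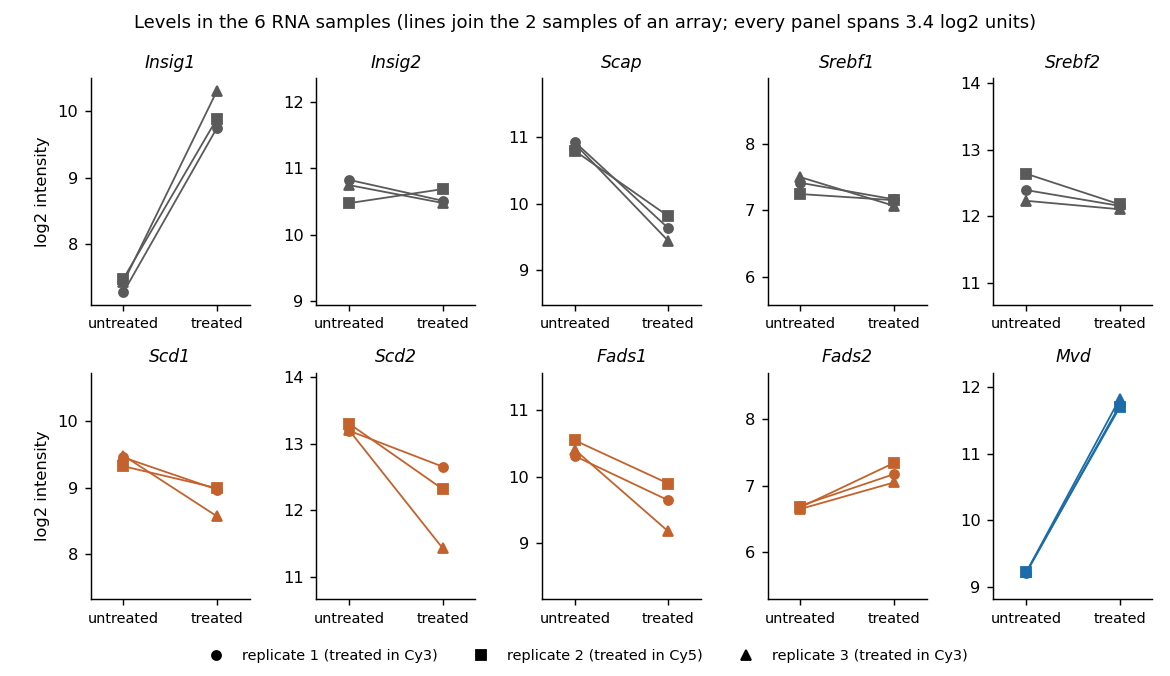
Normalized log2 intensity of 10 members in the 3 untreated and 3 treated samples, with a line joining the samples of each array and every panel spanning the same range of log2 units. Insig1 and Mvd rise steeply on all 3 arrays and Scap falls on all 3, while the lines of Insig2 cross and those of Srebf1 and Srebf2 are shallow.

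By level, the treated samples of 11 sterol enzymes all lay above the untreated ones, those of 4 all lay below, and 3 overlapped. In the fatty acid arm the counts were 3, 8 and 1, and among the regulators 1, 3 and 2. Over all tested genes 26.8% lay wholly above and 48.8% wholly below. The share of sterol enzymes wholly above was 61.1%, and the share of fatty acid enzymes wholly below was 66.7%. The latter share includes Fasn, which was not well above background in any treated sample.

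Genes of the same pathways outside the 36 were counted from a further list. Of 19 sterol and SREBP pathway genes, which include proteases, ligase partners, uptake, storage and NF-Y genes, 6 rose (31.6%) and 11 fell (57.9%), where 24.5% and 46.1% of all tested genes did. Their median was -0.34. At 2-fold or more, Faf2, which takes part in the degradation of membrane proteins of the endoplasmic reticulum, was at 1.44 ± 0.092 on its brightest probe (limma adjusted p = 2.47e-06) but gave -1.05, -1.38 and -1.32 on its other kept probe, so that its direction depended on the probe. Nfyc, an NF-Y subunit, was at -1.16 ± 0.086 (limma adjusted p = 5.79e-06), with -0.69 on its other probe. Mbtps1 and Mbtps2, the proteases that cut SREBPs, singled out after their values were seen, were at -0.97 ± 0.090 and -0.57 ± 0.083 on their brightest probes (limma adjusted p = 2.11e-05 and 0.000320). The other kept probe of Mbtps1 gave 0.79, 1.15 and 1.24, the opposite direction, and that of Mbtps2 -0.11.

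Of 28 further fatty acid pathway genes, 24 were measured, and Elovl3, Elovl4, Gpam and Thrsp did not pass the filter on dim probes. In this list 8 rose (33.3%) and 10 fell (41.7%), where 24.5% and 46.1% of all tested genes did, and the median was -0.13. Among those that fell, Acacb was not well above background in any treated sample. It passed the filter on dim probes only through its untreated samples. The acyl-CoA synthetases, which activate fatty acids, were divided. Acsl1 rose by 1.81 ± 0.11 and Acsl5 by 1.09 ± 0.12, while Acsl4 was at -1.28 ± 0.090. The isocitrate dehydrogenase gene Idh1 and the mitochondrial malic enzyme gene Me2 were at -1.41 ± 0.11 and -1.16 ± 0.083, the mitochondrial synthase gene Oxsm at -1.35 ± 0.081 and the phosphatidate phosphatase gene Lpin1 at -1.11 ± 0.081. These 7 passed the test at 2-fold or more, with limma adjusted p from 1.77e-06 (Oxsm) to 6.35e-05 (Acsl5).

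The arrays ranked genes alike, with correlations of log2 ratios over all tested genes of 0.943 to 0.968 between arrays and of 0.940 to 0.955 over the 36 members. Markers of the labelled cell type were present, since 7 of 8 macrophage markers were measured, of which 6 fell and 1, Cd14, rose. The largest falls were those of Fcgr1 (-2.05), Mertk (-2.05) and Csf1r (-1.79), and Cd14 was at 0.97. The summed level of the measured macrophage markers was 17.24 to 17.55 in treated and 18.24 to 18.36 in untreated samples on the log2 scale. None of the 4 adipocyte markers was above background. Of the fibroblast markers 2 of 3 measured rose (8.71 to 8.88 against 8.25 to 8.42), with Col1a1, Lum and Pdgfra not measured, and the ranges of the T cell, dendritic cell, mast cell and endothelial lists were also higher in treated samples, while that of the B cell list was lower. These ranges rest on 2 of 5 T cell, 3 of 4 dendritic cell, 1 of 4 mast cell, 3 of 3 endothelial and 2 of 5 B cell markers that were measured. Kdr, the brightest endothelial marker, was at 1.07 on its brightest probe but gave -0.11, -0.18 and -0.083 on its other kept probe. Cdh5 and Pecam1 were not called. In the dendritic cell list Siglech, the brightest, and Flt3 were not called, while Zbtb46 rose by 1.51. Of the neutrophil markers 7 of 8 were measured, of which 3 rose and 3 fell. Their summed ranges overlapped (14.70 to 15.35 in treated and 14.62 to 14.82 in untreated samples). Whether other cells take part in the members' values was not tested.

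**Figure D5:**
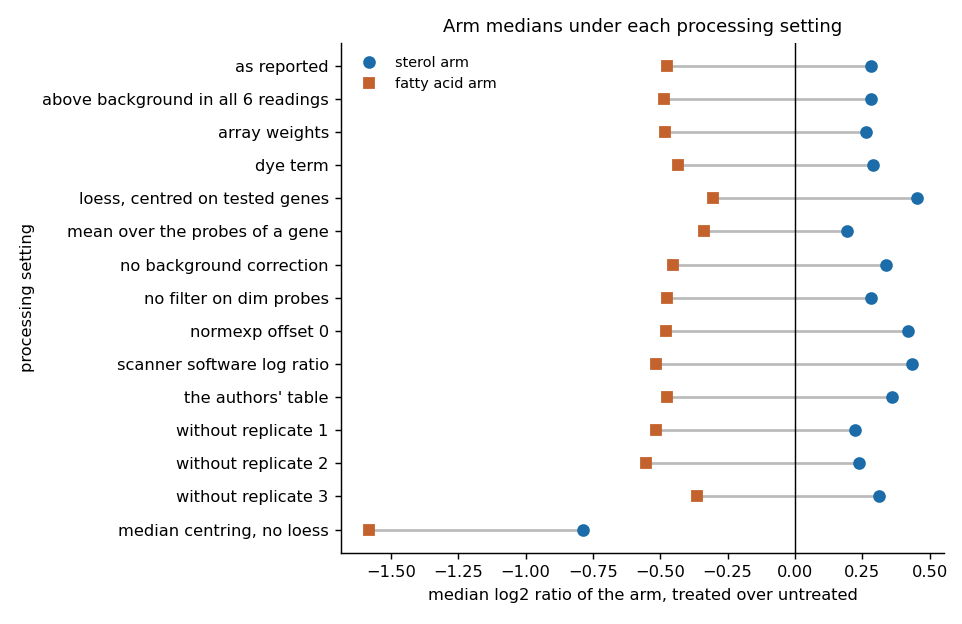
Median log2 ratio (treated over untreated) of the sterol arm (circles) and the fatty acid arm (squares) as reported and under each alternative processing setting, joined by a line. The sterol median lies to the right of the fatty acid median in every row, and the row of median centring without loess, with medians of -0.79 and -1.58, lies left of 0 for both arms.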

How the data were processed

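RNA of adiponectin-treated and untreated macrophages was measured on 3 Agilent 2-colour arrays of 1 slide. The authors deposited scanner output with a spot intensity per channel, made with Agilent Feature Extraction 10.7.3.1 per the file headers and the submitters' processing notes. They also deposited a table of log2 ratios, whose columns followed the ratios computed here at a correlation of 0.990 to 0.994 after turning, and the scanner files hold the software's log10 ratio per spot. The table's centring lies near 0 (column medians of -0.00041 to -0.0049).

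Median signals were background-corrected (normexp, offset 50) and loess-normalized within arrays with limma (version 3.58.1, R 4.3.3). Control spots had weight 0, and 299 to 323 outlier spots per array were left out. No spot was saturated. Ratios were turned to treated over untreated, spots were averaged per probe, and the brightest probe above background in at least 3 of 6 channel readings stood for its gene. Of 55681 probes, 27235 matched 1 symbol through RefSeq (GRCm38.p6). Each of 13179 genes was tested against 0 with lmFit and eBayes, with Benjamini-Hochberg adjustment and a threshold of 0.05. The median moderated SE was 0.088, and the number of arrays limits the precision. Levels are channel intensities after loess and Aquantile scaling. A bound takes, per array, the higher of the dim probe's own signal and the lowest signal of probes well above background, and is open to dye bias.

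Members, lists and tests were chosen with earlier results of these data known. Every member is named. Values per array are given for members at 2-fold or more, for paralogue pairs and for members whose kept probes differ in sign. They are also given for Hmgcs1, Tm7sf2 and Me1 and, as levels, for Sc5d. Genes of the further pathway lists are named at 2-fold or more, a rule that was not applied to the cell type markers. Some genes of the other lists are counted but not reported here by name. The enrichment of no list was tested. The fit was tested on simulated data. The alternatives were an offset of 0, no background correction, median centring, centring on tested genes, the scanner software's ratio, the authors' table, the mean over probes, other filters on dim probes, a dye term, array weights and leaving out each replicate.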

Additional observations from a re-analysis of the deposited data

How the results depend on the processing

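Outside median centring, 19 of the called members kept their direction and their call under every alternative, among them Insig1, Mvd, Fdps, Scap and Scd2. The reported test is itself paired, since each ratio sets the treated against the untreated sample of 1 array. No paired analysis was possible beyond it because this leaves a single group of ratios to which no further block applies. The sterol median of 0.28 was 0.42 with an offset of 0, 0.34 without background correction, 0.45 with centring on tested genes, 0.43 in the scanner software's ratio, 0.36 in the authors' table, 0.19 with the mean over probes, 0.26 with array weights and 0.22 to 0.31 with 1 replicate left out. The difference between the arms was 0.53 with the mean over probes. Leaving out 1 replicate gave 6 to 9 sterol enzymes called higher (6 without replicate 1) and 1 to 4 regulators called lower. Regulators called lower numbered 1 with an offset of 0, with centring on tested genes and in the scanner software's ratio, and 2 with the mean over probes.

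With median centring the counts called higher and lower were 0 for all genes, both arms and the regulators by limma (5311 genes at an unadjusted p under 0.05), and the medians were -0.79 for the sterol and -1.58 for the fatty acid arm. Its ratios turned negative for Mvk (-0.74), Pmvk (-0.83), Idi1 (-1.10), Fdft1 (-0.049), Sqle (-0.91), Lss (-0.64), Msmo1 (-1.14), Nsdhl (-0.70), Hsd17b7 (-0.34), Sc5d (-0.28), Acss2 (-0.78) and Me1 (-0.37). The median of all tested genes was itself -1.03 under median centring, and all of these members except Idi1 and Msmo1 lay above it. Among members not called, Hmgcs1 turned to 0.064 with an offset of 0, 0.0026 without background correction, 0.14 with centring on tested genes, 0.014 in the scanner software's ratio and 0.020 in the authors' table, and ranged from -0.056 to 0.0094 with 1 replicate left out. Idi1 turned to -0.016 with array weights and ranged from -0.053 to 0.079 with 1 replicate left out. Msmo1 turned to -0.011 with a dye term and ranged from -0.013 to 0.073. Insig2 turned to 0.00055 with an offset of 0, 0.047 with centring on tested genes, 0.016 in the scanner software's ratio and 0.051 with the mean over probes, and Srebf2 to 0.0047 with the mean over probes. The cause was not tested. Signals near background, as for Fasn, limit what can be said of size.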
